A study of Mus musculus with 4 samples.

Results

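The extracellular Wnt system was followed through 10 genes, namely the ligands *Wnt5a*, *Wnt5b* and *Wnt9a* and the secreted antagonists *Sfrp1*, *Sfrp2*, *Sfrp5*, *Frzb*, *Wif1*, *Dkk2* and *Dkk3*, chosen by symbol among the 32288 features of a single-cell RNA-seq data set from mouse hindlimb cartilage and its surrounding tissue at E14.5 (embryonic day). All embryos carried *Gli1CreER/+*, *R26 LSL-tdT/+* and *Tigre TRE-p21/+*. Control embryos carried nothing further, whereas p21 embryos (the *Pan-Cart-p21MOE* model) also carried *Col2a1-rtTA/+*, a transgene active in cartilage that, once doxycycline is given, drives the cell-cycle inhibitor p21 in a mosaic of cartilage cells. All dams received doxycycline from E12.5 and tamoxifen at E13.5, so that cells expressing *Gli1* at about the latter time, and their descendants, became tdT+. Cells were sorted into tdT+ and tdT- and loaded as 1 library per fraction in each of 2 collections. Each library joined cells of p21 embryos of one sex with cells of control embryos of the other, the sexes being exchanged between collections, and cells were given to a condition by their sex-linked transcripts, following the study's methods. By the study's methods the female p21 cells, those of Collection 2, came from a single embryo, whereas elsewhere the study describes pooled embryos, so the number of embryos behind each sum is uncertain. The p21 cells are all cells of p21 embryos, whether or not they expressed the transgene.

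Wnt proteins are secreted, lipid-modified ligands that bind Frizzled receptors. With the co-receptors LRP5 and LRP6 they stabilise beta-catenin, and with ROR and RYK receptors they act without it. Wnt5a and Wnt5b mostly use the latter route and are known for limb outgrowth and the ordering of growth cartilage, while Wnt9a is known as a ligand of forming joints. Secreted frizzled-related proteins, Frzb among them, and Wif1 bind Wnt proteins outside the cell, whereas Dkk2 binds the LRP co-receptors and Dkk3 is a divergent member of the Dickkopf family.

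Promoters of 7 of the 10 genes were held in the RefSeq table used (GRCm38.p6). The 250 bases upstream of the start are shown for *Dkk2* and *Sfrp2*, the antagonists with the largest log2 differences of either sign between the sorted fractions over all cells (*Dkk2* short of the threshold), with motif matches in capitals.
*Dkk2* (chr3:132085042-132085291, + strand): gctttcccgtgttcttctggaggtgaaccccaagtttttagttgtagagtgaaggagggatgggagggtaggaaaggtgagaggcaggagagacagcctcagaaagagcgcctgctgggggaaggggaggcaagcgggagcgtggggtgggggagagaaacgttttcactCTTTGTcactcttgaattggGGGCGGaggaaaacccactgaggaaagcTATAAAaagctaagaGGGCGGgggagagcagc
*Sfrp2* (chr3:83766071-83766320, + strand): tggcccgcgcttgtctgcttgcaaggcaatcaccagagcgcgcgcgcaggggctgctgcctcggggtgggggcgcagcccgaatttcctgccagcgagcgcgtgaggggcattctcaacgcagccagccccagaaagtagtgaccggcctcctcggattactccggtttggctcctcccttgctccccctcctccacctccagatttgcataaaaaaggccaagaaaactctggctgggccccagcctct
The motifs searched on both strands were TATAAA (bound by TBP, in 12.4% of all 32851 promoters of the same length), GGGCGG (GC box, 32.7%), CTTTGAT (of TCF/LEF, the nuclear partners of beta-catenin, 3.21%), its variant ending in A, CTTTGAA (4.46%), ACAAAG (SOX, 16.5%) and GACCACCCA (GLI, 0.225%). The *Dkk2* window held 1 TBP motif, 2 GC boxes and 1 SOX match, the last on the opposite strand, and the *Sfrp2* window held none of the 6 motifs. The *Sfrp2* window had 16 CpG and the *Dkk2* window 7, against a median of 6 over all promoters. These matches describe letters only.

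Of 18955 barcodes, 6873 passed the filters on UMIs (unique molecular identifiers), genes and mitochondrial reads, and 2755 could be given to a condition (100 to 785 cells per library and condition, with a median of 16453 to 27293 UMIs per cell by library). The tdT- library of Collection 2 stood apart, since 2747 of its 3912 filtered cells had no called sex. Barcode sequences shared by more than 1 library numbered 40. In sums of all cells *tdt* was at 14.54 to 20.01 CPM (UMIs per 1000000) in tdT+ and 0.994 to 2.21 in tdT- cells. *WPRE*, an element carried by the transgenes, was at 1070, 1061, 1692 and 1311 CPM in p21 chondrocytes of the 4 libraries and at 663, 122, 487 and 68.2 in control chondrocytes, higher in p21 cells within each library. *Cdkn1a*, the gene of p21, did not separate the conditions (44.5 to 68.9 and 21.85 to 95.9). The study states that, as the method favours 3′ ends, reads of the p21 and tdT transgenes fall mostly on *WPRE*.

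Clustering without the Wnt genes gave 19 clusters. Those matching markers were called interzone-like (148 cells), resting-like (231), proliferative-like (654), hypertrophic-like (94), osteoprogenitor-like, tenocyte-like and muscle-like. Leading genes included *Pax9* and *Gdf5* in interzone-like, *Cytl1* and *Gdf10* in resting-like, *Epyc* and *Matn1* in proliferative-like and *Col10a1* and *Ihh* in hypertrophic-like cells. *Barx1*, a marker of resting chondrocytes in the lists used, was among the leading genes of both interzone-like and resting-like cells. In resting-like cells the heat-shock genes *Hspa1a* and *Hspa1b* also led. No cluster could be named perichondrium. Cluster 4 (327 cells) matched its markers best but had *Runx2*, *Aspn* and *Alpl* among its leading genes, so it is given by number. Cluster 1 (358 cells) was led by *Dcn*, with *Cxcl12* and *Osr1*, cluster 6 by *Alpl* and *Dlx5*, cluster 8 by *Bmp5* and *Sox9*, cluster 9 by *Isl1* and cluster 10 by *Tbx18*. Levels in these groups are CPM in each library with at least 10 cells, as mean ± SD over 4 libraries unless another n is given, and are descriptions without a test.

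The 3 ligands had different distributions. *Wnt5a* (chr14:28504750-28527448, + strand) was highest in cluster 4, with 183, 154, 184 and 114 CPM in the 4 libraries, followed by cluster 6 at 108 ± 26.05 and cluster 1 at 99.8 ± 17.4, which overlap. Among cartilage groups it was at 88.4 ± 25.7 (n = 3) in hypertrophic-like, 32.8 ± 7.59 in proliferative-like and 21.9 ± 9.23 in resting-like cells. Interzone-like cells were lowest at 16.8 ± 7.85, and their highest library (28.4) lay below the lowest of cluster 4 (114). Barcodes under 1000 UMIs, used as a rough estimate of free RNA, held 16.5 to 42.9 CPM of *Wnt5a*. The deposited barcodes start at 500 to 502 UMIs, so these are not empty droplets only. Whether they include small or damaged cells was not tested, here or for the free RNA levels below. The proliferative-like, resting-like and interzone-like means lay within this range. The share of free RNA in a cell was not estimated, here or below. The part of free transcripts in such levels was therefore not tested. No neighbours in the order of *Wnt5a* levels were separated. *Wnt9a* (chr11:59306928-59333552, + strand) was instead highest in interzone-like cells, with 54.3, 39.3, 46.9 and 29.2 CPM in the 4 libraries. All of these lay above every library of every other group with at least 2 libraries, the next being muscle-like cells at 18.3 and 25.2. By condition *Wnt9a* did overlap, with 20.7 in the 44 p21 interzone-like cells of the Collection 2 tdT- library and 28.15 in the p21 muscle-like cells there. Its lowest level was in hypertrophic-like cells at 3.40 ± 1.01 (n = 3), under the free RNA level of 4.88 to 8.95. *Wnt5b* (chr6:119432531-119544347, - strand) was high in both of these compartments, at 97.2 ± 42.3 in interzone-like and 112 ± 75.6 (n = 3) in hypertrophic-like cells, and at 63.7 ± 4.73 in cluster 4. Muscle-like cells had 33.6 and 229.8 in 2 libraries, and their mean was above those of all these groups. The 229.8 came from the Collection 2 tdT+ library with 13 such cells, of which the 11 p21 cells had 10.6 on 3 UMIs. That mean thus rests on the few control cells of this library. The 4 groups overlap, and resting-like cells and cluster 6 were lowest at 29.9 ± 8.93 and 23.7 ± 14.7.

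**Figure D1:**
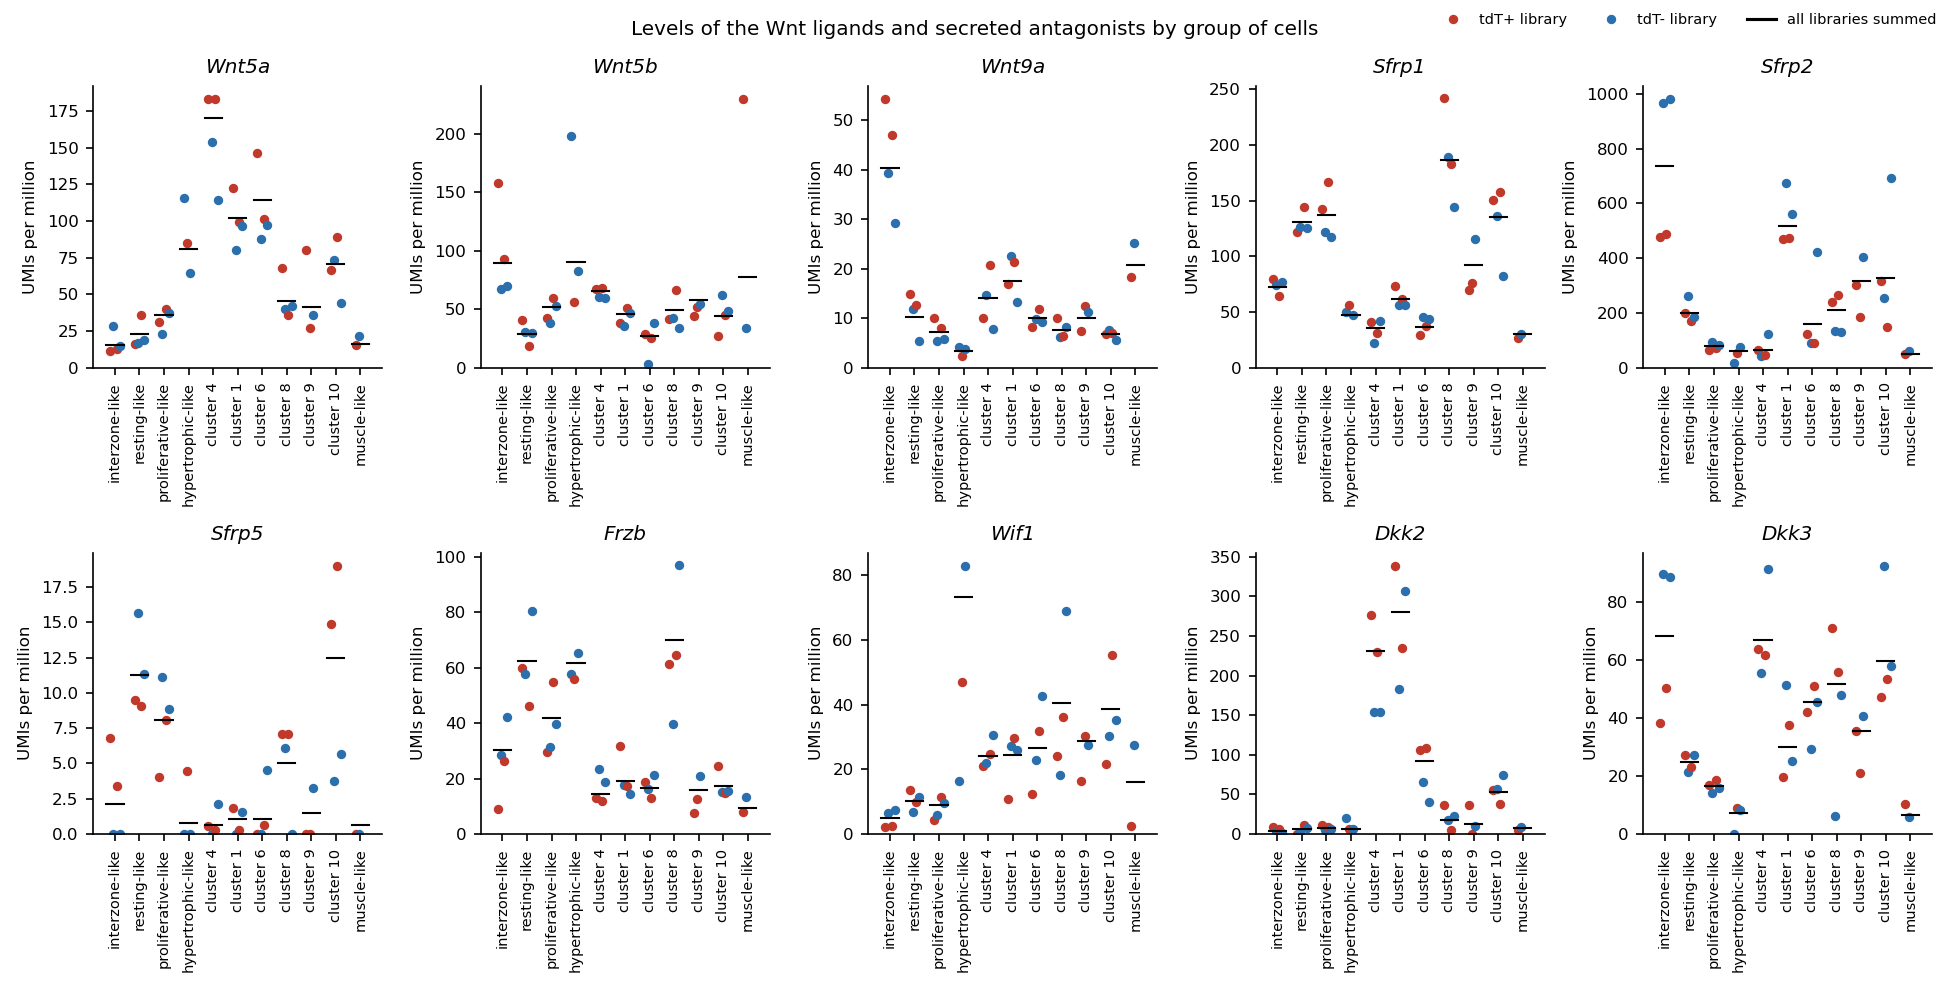
Level of each gene (vertical axis, CPM, linear from 0) by group of cells (horizontal axis), with 1 point per library of at least 10 cells. *Dkk2* is highest in clusters 1 and 4, *Wnt5a* in clusters 4 and 6, *Wnt9a* and *Sfrp2* in interzone-like cells, and *Frzb* in cluster 8, resting-like and hypertrophic-like cells.

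Among the secreted frizzled-related genes, *Sfrp2* (chr3:83766321-83774316, + strand) was highest in interzone-like cells, where the tdT+ libraries had 477 and 488 and the tdT- libraries 965 and 981 CPM. Both tdT- libraries were thus above both tdT+ libraries, but the values by condition overlapped. Control cells had 471 and 680 in the tdT+ libraries and 613 in the Collection 1 tdT- library. Those of p21 embryos had 401 in the Collection 2 tdT+ library and 1530 and 967 in the tdT- libraries, the 1530 on 10 cells. Cluster 1 followed at 545 ± 96.1. The levels of 78.6 ± 13.6 in proliferative-like, 69.3 ± 37.6 in cluster 4 and 48.0 ± 29.9 (n = 3) in hypertrophic-like cells were near those of muscle-like cells (49.6 and 61.3). Free RNA held 142 to 187 CPM of *Sfrp2*, above these low levels, whose part of free transcripts was not tested. *Sfrp1* (chr8:23411502-23449632, + strand) was highest in cluster 8 at 189 ± 40.3, followed by proliferative-like cells at 137 ± 22.45, cluster 10 at 131.5 ± 34.3 and resting-like cells at 129 ± 9.86, each overlapping the next. Cluster 9 had 87.2 ± 24.9 (n = 3), interzone-like cells 73.6 ± 6.74 and cluster 1 61.6 ± 8.08, and every interzone-like library was below every resting-like library. Cartilage had no common level, since hypertrophic-like cells were at 50.9 ± 4.56 (n = 3), above cluster 4 at 33.8 ± 9.31. Free RNA held 52.1 to 74.7, and the means of interzone-like cells and of the groups below them lay within or under this range. *Sfrp5* (chr19:42197971-42202252, - strand) was sparse, with 308 UMIs in 200 cells. It was at 11.4 ± 2.998 in resting-like, 8.02 ± 2.95 in proliferative-like and 10.8 ± 7.30 in cluster 10, which overlap, while the 0.751 ± 0.955 of cluster 4 lay under the free RNA level of 3.05 to 6.07.

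*Frzb* (chr2:80411970-80447625, - strand), a frizzled-related antagonist known from articular and growth cartilage, was at 65.6 ± 23.7 in cluster 8, 60.97 ± 14.3 in resting-like and 59.6 ± 4.80 (n = 3) in hypertrophic-like cells, which overlap. Proliferative-like cells followed at 38.8 ± 11.5, with every library below every hypertrophic-like library. Clusters 1, 4, 6, 9 and 10 had means of 13.7 to 20.2, no higher than the free RNA level of 20.8 to 27.4. *Wif1* (chr10:121033960-121100650, + strand), whose product binds Wnt proteins through its WIF domain, ranged widely in hypertrophic-like cells, with 16.5, 47.1 and 82.96 CPM in 3 libraries. It was at 36.9 ± 22.6 in cluster 8 and 35.6 ± 14.3 in cluster 10, and lowest in interzone-like cells at 4.67 ± 2.63, under the free RNA level of 12.15 to 21.3.

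Of the Dickkopf genes, *Dkk2* (chr3:132085292-132180304, + strand) divided the groups most clearly by its levels. Cluster 1 had 339, 183, 235 and 307 and cluster 4 277, 154, 229.7 and 154 CPM in the 4 libraries. Each of these exceeded every library of cluster 6 (80.3 ± 32.95) and of cluster 10 (56.2 ± 15.1). Interzone-like, resting-like and proliferative-like cells had 5.05 ± 3.43, 5.64 ± 5.24 and 7.71 ± 2.75, near muscle-like cells (5.22 and 8.41) and at or below the free RNA level of 8.68 to 40.6. When each cell was thinned to 5000 UMIs, 52.2% of cluster 1 and 45.4% of cluster 4 had a *Dkk2* UMI, against 2.63% of interzone-like and 6.65% of muscle-like cells. The thinning left out 8, 5, 4 and 0 cells, and the unthinned shares were 76.8%, 71.25%, 8.11% and 16.3%, at median depths of 26686.5, 25879, 19300 and 23553 UMIs. *Dkk3* (chr7:112116017-112159057, - strand) lacked this division, at 68.2 ± 15.9 in cluster 4, 66.7 ± 26.2 in interzone-like cells and 62.8 ± 20.2 in cluster 10. Resting-like cells (24.8 ± 2.95) lay above every library of proliferative-like cells (16.4 ± 1.975), whose mean was within the free RNA level of 16.2 to 21.95, and hypertrophic-like cells had 5.75 ± 4.99 (n = 3).

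Tenocyte-like and osteoprogenitor-like cells reached 10 cells in 1 library only and have no spread. Summed over the 90 tenocyte-like cells, *Sfrp2* was at 446, *Wnt5b* at 88.9, *Dkk2* at 101.5 and *Wif1* at 88.2 CPM. In 53 osteoprogenitor-like cells *Wnt5a* was at 134.5 and *Dkk2* at 5.49.

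Across the 19 clusters, log2(level + 1) of the 10 genes was most alike for *Sfrp5* and *Frzb* (Pearson's r = 0.63), *Sfrp2* and *Dkk3* (0.56) and *Wnt5a* and *Dkk2* (0.53), and most opposed for *Wnt9a* and *Sfrp1* (-0.47). Among 12859 genes compared, the gene most like *Dkk2* was *Rspo2* (r = 0.88), which encodes a secreted enhancer of Wnt signalling. The 3 most like *Sfrp2* were *Gas1* (r = 0.92), *Angptl1* and *Sulf1*, of which *Gas1* encodes a cell-surface protein of Hedgehog signalling. For the other genes they were *Colec12* (r = 0.86), *Sh3bp5* and *Creb3l1* for *Wnt5a*, *Ak7* (r = 0.87), *Cep152* and *Magi3* for *Wnt5b* and *Nfyc* (r = 0.86), *Atm* and *Fam110a* for *Wnt9a*. *Sfrp1* was nearest to *Rcn2* (r = 0.85), *Zrsr2* and *Asrgl1*, *Sfrp5* to *Mip* (r = 0.80), *Ptcra* and *Phyh* and *Frzb* to *Rbpjl* (r = 0.86), *Pcdh1* and *Sox10*. *Wif1* was nearest to *Mcur1* (r = 0.68), *Col18a1* and *Gm48742*, and *Dkk3* to *Plpp3* (r = 0.93), *Marf1* and *Iglon5*. The clusters share 4 libraries, and the smallest hold 12, 16 and 23 cells. Clusters 14, 18 and 19 came only from the Collection 2 tdT- library, and 94.9% of cluster 17 from the Collection 2 tdT+ library. Nearly all cells of these clusters were p21 cells. *Wnt9a* rested on 0, 2, 5 and 1 UMIs in clusters 14, 17, 18 and 19. The part of these clusters in the correlations was not tested. No chance level was set for the highest r among the 12859 genes.

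The sort into tdT+ and tdT- cells asks which genes differ between cells of the *Gli1* lineage and the rest. UMIs were summed per library and condition, giving 4 tdT+ and 4 tdT- sums, and compared over all genes in edgeR (quasi-likelihood F test, p-values adjusted after Benjamini and Hochberg). The p21 and control cells of a library were loaded together. Each fraction thus rests on 2 libraries, although the model took its 4 sums as separate. Over all cells *Wnt5a* was higher and *Sfrp2* lower in tdT+ cells, and these 2 of the 10 genes passed an adjusted p of 0.05, against 1.88% of the 14555 genes tested. The same genes passed over the other mesenchyme, that is the cells outside chondrocyte and muscle clusters and single-library clusters, where 9 of the 10 were tested and 1.36% of 13566 genes passed. This class holds the unnamed cluster 8, which scored highest for resting chondrocyte markers and was 7.03% to 17.1% of it by library. Over chondrocytes 0 of 10 passed, against 0.0342% of 11690 genes. There *Wnt9a* and *Sfrp1* had an unadjusted p under 0.05, beside 7.07% of all genes tested, and DESeq2 also called 0 of the 10. Levels in sums are CPM scaled by the trimmed mean of M values (TMM).

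Over all cells, *Wnt5a* was at 96.1, 102, 93.99 and 73.5 CPM in tdT+ sums and at 54.7, 50.45, 51.3 and 53.8 in tdT- sums, each in the order control and p21 of Collection 1, then of Collection 2. Every tdT+ sum was above every tdT- sum. The log2 fold change was 0.79 ± 0.10 (SE), or 1.73-fold, with an edgeR adjusted p of 0.00858. Over the other mesenchyme tdT+ sums had 128.5, 129.7, 118 and 96.4 and tdT- sums 83.4, 75.01, 69.3 and 68.15. These did not overlap either, and the log2 fold change was 0.68 ± 0.11 (edgeR adjusted p = 0.0111). In chondrocytes the sums overlapped (26.8 to 45.6 and 13.8 to 39.98) and the highest was little above the upper end of its free RNA level, with a log2 difference of 0.07 and a 95% interval of -0.44 to 0.58.

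*Sfrp2* ran the other way. Its tdT+ sums over all cells were 200.4, 157, 136 and 205 and its tdT- sums 231, 347, 226 and 315 CPM. The groups did not overlap, and the log2 fold change was -0.66 ± 0.14 (edgeR adjusted p = 0.0451). In the other mesenchyme it was at 251, 196, 151 and 303 in tdT+ and 345, 492, 419 and 507 in tdT- sums. Again they did not overlap, with a log2 fold change of -0.97 ± 0.16 (edgeR adjusted p = 0.0158). The call over all cells was lost in 6 of 8 fits that each left out 1 sum (log2 fold change -0.82 to -0.54, highest adjusted p 0.13 by edgeR), namely those without the Collection 1 p21 tdT+ sum, the Collection 2 control tdT+ sum or any 1 of the tdT- sums. Without the p21 sum of the Collection 2 tdT- library neither gene passed in the other mesenchyme (edgeR adjusted p = 0.0511 for *Wnt5a* and 0.0515 for *Sfrp2*).

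*Dkk2* missed the threshold. Over all cells its tdT+ sums were 157, 122, 88.3 and 90.7 and its tdT- sums 46.6, 53.1, 71.4 and 70.98 CPM. They did not overlap, at a log2 difference of 0.89 ± 0.20 (edgeR adjusted p = 0.0577, and 0.000733 by DESeq2). Over the other mesenchyme they overlapped (117 to 225 and 80.8 to 149, edgeR adjusted p = 0.364).

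**Figure D2:**
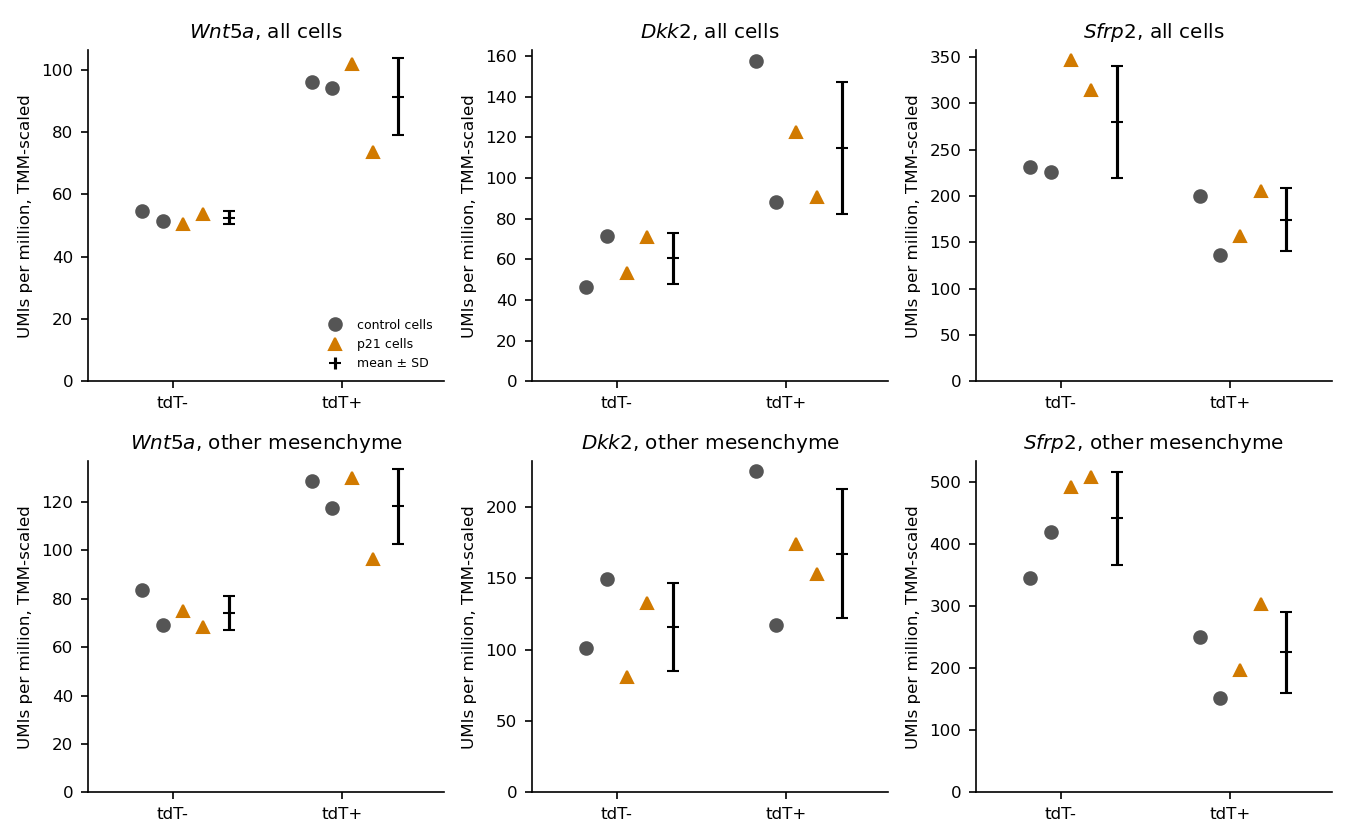
Level of *Wnt5a*, *Sfrp2* and *Dkk2* (vertical axis, TMM-scaled CPM) in tdT+ and tdT- cells, each point being the cells of 1 condition in 1 library. *Wnt5a* is higher and *Sfrp2* lower in all 4 tdT+ sums than in any tdT- sum.

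The fractions also differed in makeup. Of the other mesenchyme, cluster 4 was 33.9% and 22.6% in the tdT+ libraries and 18.3% and 10.3% in the tdT- libraries. Interzone-like cells were 5.81% and 8.22% against 16.6% and 10.3%, and tenocyte-like cells 0.612% and 0.856% against 4.57% and 14.85%. All 5 osteoprogenitor markers were detected there, at a summed level of 619 to 759.7 CPM in tdT+ and 289 to 394 in tdT- sums, as were all 5 tenocyte markers at 124 to 195.5 and 196 to 505. Of 16 marker lists, 3 more did not overlap between the fractions there. All 5 interzone markers were detected, at 82.6 to 100.2 in tdT+ and 123 to 179 in tdT- sums, all 7 chondrocyte markers at 1786 to 2043 and 2285 to 3016, and the erythroid list at 3.66 to 5.28 and 8.62 to 38.4. Their part in the differences of *Wnt5a* and *Sfrp2* was not tested. Fits added after seeing the data gave the differences within these parts. Without tenocyte-like cells *Wnt5a* passed (0.59 ± 0.10, edgeR adjusted p = 0.0414) and *Sfrp2* did not (-0.88 ± 0.16, edgeR adjusted p = 0.0557). Within cluster 4 alone *Wnt5a* was at 170.4, 193, 185 and 196 in tdT+ and 161.5, 158, 116 and 116 in tdT- sums. These did not overlap, with a log2 difference of 0.46 ± 0.15 (edgeR adjusted p = 0.656). *Dkk2* in cluster 4 was at 349.7, 211, 204 and 268 in tdT+ and 152.5, 167, 183 and 139 in tdT- sums, also without overlap (0.69 ± 0.18, edgeR adjusted p = 0.561). In cluster 1 the log2 differences were 0.24 ± 0.16 for *Wnt5a*, -0.12 ± 0.22 for *Dkk2* and -0.51 ± 0.27 for *Sfrp2*, and none passed (edgeR adjusted p = 1 for each).

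The remaining genes did not pass. *Wnt9a* in chondrocytes was at 11.4, 8.99, 9.44 and 8.25 in tdT+ and 7.95, 5.51, 6.40 and 5.32 CPM in tdT- sums, on 4 to 52 UMIs each. The groups did not overlap (0.61 ± 0.23, edgeR adjusted p = 0.659), but all tdT- sums and 1 tdT+ sum lay within the free RNA level given above. The hypertrophic markers, all 5 detected, were at 66.5 to 193 in tdT+ and 238.5 to 851 in tdT- chondrocyte sums, and the erythroid and tenocyte lists were also lower in all tdT+ sums. Their part was not tested. *Sfrp1* in chondrocytes differed by 0.29 ± 0.12 (edgeR adjusted p = 0.682). *Wif1* and *Dkk3* in the other mesenchyme had log2 differences of -0.66 ± 0.25 and -0.32 ± 0.11 (edgeR adjusted p = 0.31 and 0.255), and *Frzb* over all cells -0.27 ± 0.11 (edgeR adjusted p = 0.226). For *Wnt5b* and *Sfrp1* over all cells the 95% intervals were -0.31 to 0.25 and -0.21 to 0.21.

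**Figure D3:**
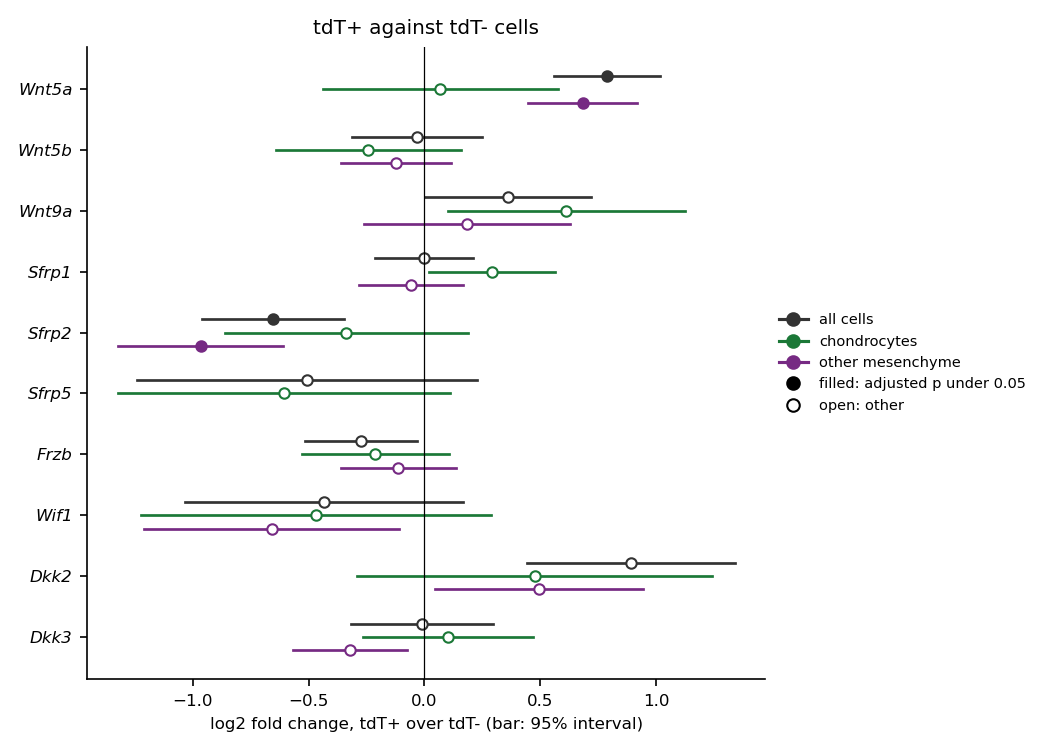
Log2 fold change of tdT+ over tdT- cells (horizontal axis, with 95% interval) for each gene in all cells, chondrocytes and other mesenchyme, filled where the adjusted p was under 0.05. The filled points are those of *Wnt5a* and *Sfrp2* in all cells and in the other mesenchyme.

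Cells of p21 embryos were compared with control cells, with the sorted fraction in the model, to ask whether p21 in cartilage altered these genes in cartilage or around it. None of the 10 genes passed in any class of cells by edgeR, and few genes did in all: 0.0344% of 14555 over all cells, 0.351% of 11690 in chondrocytes, 0.0472% of 6359 in resting-like cells, 0% of 5891 in interzone-like cells, 0.0101% of 9924 in cluster 4 and 0% of 13566 in the other mesenchyme. In the classes with no call, 381 genes of interzone-like cells and 667 of the other mesenchyme had an unadjusted p under 0.05, and DESeq2 called 8 and 5 genes. Of the 10 genes, *Sfrp2* and *Frzb* over all cells and *Frzb* in chondrocytes had an unadjusted p under 0.05 by edgeR, beside 6.52% of all genes over all cells and 9.3% in chondrocytes, and DESeq2 called *Frzb* in chondrocytes. Low counts left 6 of them testable in resting-like cells, 5 in interzone-like cells and 9 in cluster 4 and the other mesenchyme. The tdT+ and tdT- sums of a condition in 1 collection come from the same embryos, so each condition rests on 2 sets of embryos.

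*Frzb* in chondrocytes came closest. Control sums were 29.3, 36.6, 34.0 and 37.8 and p21 sums 40.9, 63.4, 58.7 and 54.8 CPM (tdT+ and tdT- of Collection 1, then of Collection 2). The p21 sum was higher in each of the 4 libraries, under both assignments of sex, and the groups did not overlap. The log2 difference was 0.66 ± 0.15, or 1.58-fold (edgeR adjusted p = 0.0942), and DESeq2 gave an adjusted p of 0.0401. Over the 17 alternatives it was 0.52 to 0.86, with adjusted p from 0.00475 to 0.482 by edgeR or DESeq2. With both fractions of a set of embryos summed, leaving 2 sums per condition, it was 0.57 (edgeR adjusted p = 0.482).

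The difference was uneven among chondrocytes. In proliferative-like cells control libraries had 26.6, 31.1, 25.8 and 26.5 and p21 libraries 32.9, 33.1, 61.4 and 44.4 CPM of *Frzb*, higher in p21 in each library but by little in Collection 1. All of these control values but the 31.1 lay within the free RNA level of 20.8 to 27.4. In resting-like cells control had 43.01, 35.7, 59.9 and 54.9 and p21 71.3, 99.9, 42.2 and 90.45, higher in p21 in 3 of 4 libraries and lower in the Collection 2 tdT+ library. Resting-like cells were 16.9%, 25.4%, 27.6% and 22.0% of control and 25.4%, 47.2%, 22.4% and 21.9% of p21 chondrocytes. All 5 proliferative markers were detected, at summed levels of 2362 to 3423 CPM in control and 1741 to 2406 in p21 chondrocytes, the p21 range reaching only into the lower end of the control range. All 5 resting markers were at 468 to 681 and 426.5 to 667. All 5 hypertrophic markers were detected, at summed levels of 66.5 to 851 CPM in control and 142 to 291.5 in p21 chondrocytes. The epidermis list alone of 16 did not overlap, at 7.92 to 13.04 in control and 4.07 to 6.225 in p21 sums. The part of these shares and lists in the *Frzb* difference was not tested. In the other mesenchyme *Frzb* differed by 0.16 with a 95% interval of -0.08 to 0.41.

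**Figure D4:**
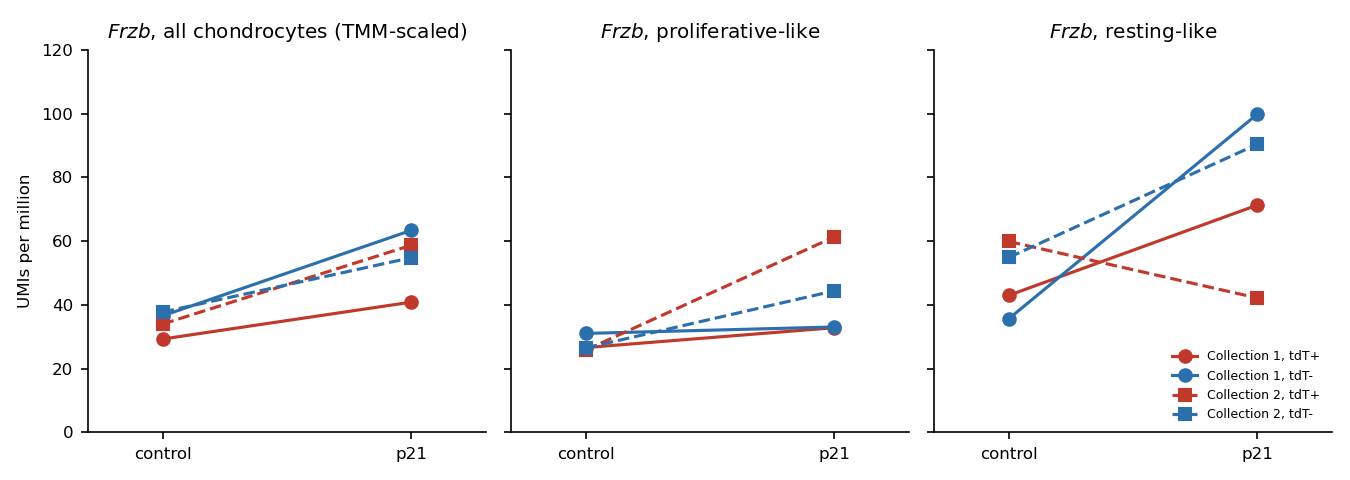
Level of *Frzb* (vertical axis, CPM) in control and p21 cells of each library, for chondrocytes and for their proliferative-like and resting-like parts. The p21 value is the higher in 4 of 4 libraries for chondrocytes and proliferative-like cells and in 3 of 4 for resting-like cells.

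*Sfrp2* over all cells was at 200.4, 231, 136 and 226 in control and 157, 347, 205 and 315 CPM in p21 sums, higher in p21 in 3 of 4 libraries and lower in the Collection 1 tdT+ library. The log2 difference was 0.32 ± 0.14 (edgeR adjusted p = 0.73). In interzone-like cells 3 sums per condition had at least 10 cells. There *Wnt9a* was at 67.4, 44.9 and 69.7 in control and 41.6, 43.25 and 22.7 in p21 sums, without overlap (-0.68 ± 0.35, edgeR adjusted p = 0.804). The control sums were 2 tdT+ and 1 tdT-, the p21 sums 1 tdT+ and 2 tdT-, and both tdT+ libraries had the higher levels of *Wnt9a* in these cells. Before TMM scaling the libraries with both conditions differed in direction, with 38.97 in control and 39.8 in p21 cells of the Collection 1 tdT- library and 62.8 and 39.7 in the Collection 2 tdT+ library. *Dkk3* in chondrocytes was at 13.9 to 16.9 in control and 18.1 to 22.05 in p21 sums, also without overlap (0.36 ± 0.17, edgeR adjusted p = 0.542). All but the highest of these *Dkk3* sums were at or below the upper end of its free RNA level. In chondrocytes *Wnt5a*, *Wnt5b* and *Sfrp1* had 95% intervals of -0.23 to 0.79, -0.18 to 0.62 and -0.21 to 0.33 on the log2 scale. In cluster 4 *Wnt5a* and *Dkk2* had 95% intervals of -0.25 to 0.37 and -0.57 to 0.19.

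**Figure D5:**
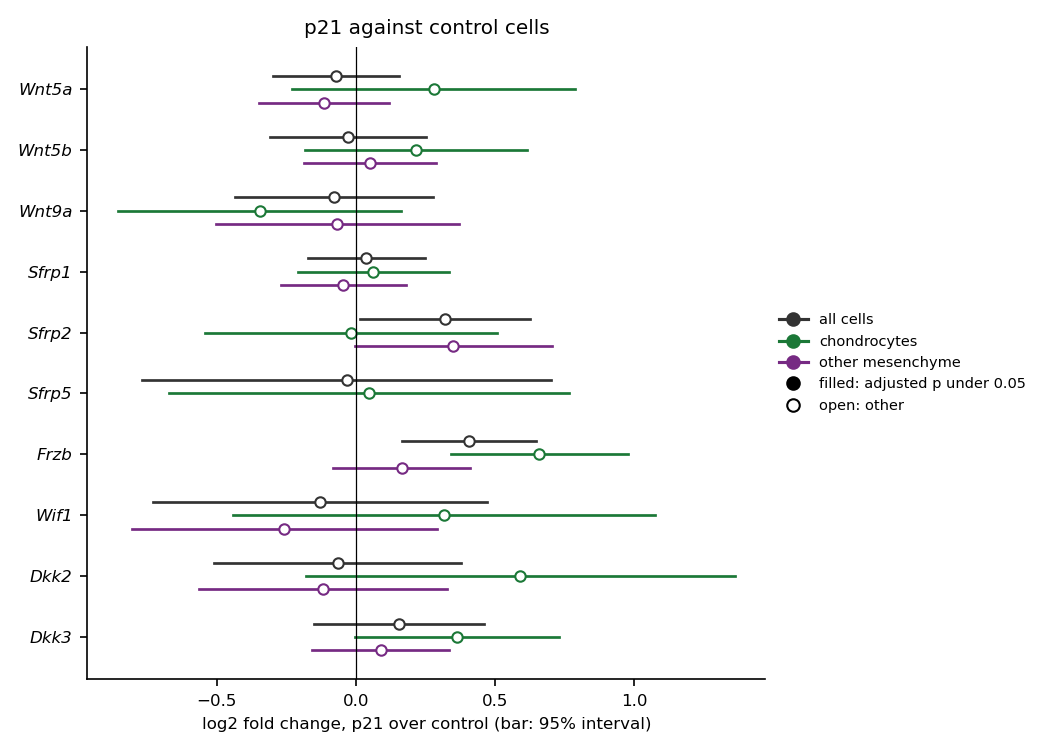
Log2 fold change of p21 over control cells (horizontal axis, with 95% interval) for each gene by class of cells. No point is filled, as no gene had an adjusted p under 0.05. The unadjusted intervals of *Frzb* in chondrocytes (0.34 to 0.98) and over all cells (0.17 to 0.65) do not reach 0. Nor does that of *Sfrp2* over all cells (0.01 to 0.62).

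Whether p21 and control differed unequally in the fractions was tested as the interaction of condition and fraction. It passed for 0% of 15392 genes over all cells and 0% of 12567 in chondrocytes by edgeR, where 616 and 260 genes had an unadjusted p under 0.05 and DESeq2 called 3 and 1. The lowest p of the 10 genes was that of *Wnt5b* in chondrocytes (0.82 ± 0.30 on the log2 scale, edgeR adjusted p = 1). Its tdT+ sums were 31.3 and 40.9 in control and 56.2 and 55.7 in p21 cells, and its tdT- sums 48.5 and 65.2 and 49.6 and 50.6. The p21 sums were thus higher in both tdT+ libraries, with no common direction in the tdT- libraries.

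Of 80 other genes of the pathway (ligands, antagonists, receptors, R-spondins, secretion, intracellular components and beta-catenin targets), 58 were tested between fractions over all cells and 2 passed, both higher in tdT+ cells, against the 1.88% of all genes. They were *Rspo3*, an R-spondin that enhances Wnt signalling (1.33 ± 0.17, edgeR adjusted p = 0.00858), and *Sostdc1*, an antagonist of Wnt and BMP signals (0.90 ± 0.20, edgeR adjusted p = 0.049). The median log2 difference of the tested genes was 0.15, beside -0.01 over all genes. In the other mesenchyme 1 of 56 passed, again *Rspo3* (1.17 ± 0.19, edgeR adjusted p = 0.0121), and in chondrocytes 0 of 45. The lowest p there belonged to *Lef1*, a nuclear partner of beta-catenin (0.43 ± 0.11, edgeR adjusted p = 0.35), and *Notum*, an enzyme that inactivates Wnt proteins (-1.30 ± 0.48, edgeR adjusted p = 0.653). Between p21 and control cells 0 passed by edgeR among 58 tested over all cells, 45 in chondrocytes, 31 in resting-like cells, 28 in interzone-like cells, 49 in cluster 4 and 56 in the other mesenchyme. Unadjusted p was under 0.05 for 5, 5, 4, 1, 1 and 4 of them, beside 6.52%, 9.3%, 5.77%, 6.47%, 2.77% and 4.92% of all genes tested, so that most of these counts were near the background. *Wls*, the carrier that Wnt proteins need for secretion, had the lowest p in chondrocytes (0.49 ± 0.13, edgeR adjusted p = 0.182), followed by *Prickle1* (-0.41 ± 0.14, edgeR adjusted p = 0.35). In the other mesenchyme it was *Lef1* and *Nkd1*, an inhibitor induced by beta-catenin (-0.41 ± 0.12 and -0.40 ± 0.14, edgeR adjusted p = 0.98 for both). The corresponding genes were *Nkd1* and *Wls* over all cells, *Lrp5* and *Gpc6* in resting-like cells, *Gsk3b* and *Tcf7l2* in interzone-like cells and *Gsk3a* and *Tnfrsf19* in cluster 4. For the interaction they were *Prickle1* and *Gpc4* over all cells and *Notum* and *Fzd1* in chondrocytes, and the edgeR adjusted p of all these ran from 0.605 to 1.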

How the data were processed

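The authors prepared 10x Genomics 3′ libraries (v3.1 chemistry) and, per the labels, counted UMIs with Cell Ranger 7.2.0 on GRCm38/mm10 with transgene features added. The deposited values are raw UMI counts per gene and barcode in 4 libraries. Total counts per library were 11945062 to 39435830, and floors from counts cover counting error only. The intervals of differences came from the edgeR fits described below, so they include the spread between the sums compared. The ambient-RNA correction, doublet calls and cluster names of the study were not used here.

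Cells needed at least 1000 UMIs, 500 genes and at most 10% mitochondrial UMIs. Condition followed the sex of the cell (at least 2 sex-linked UMIs, 80% of them of one sex). The 5% of cells with the highest Scrublet doublet scores were left out, since the caller's own threshold marked 6. Cells were clustered in scanpy 1.11.5 (2000 variable genes without Wnt, sex-linked and cell-cycle genes, 30 components, 15 neighbours, Leiden resolution 1). Clusters with over 90% of cells from 1 library stayed unnamed, a limit set after seeing the clusters.

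UMIs were summed per library, condition and class of cells (at least 10 cells), and tested in edgeR 4.0.16 (filterByExpr, TMM, glmQLFit, glmQLFTest) with condition and fraction as terms. DESeq2 1.42.0 was an alternative. The sums of 1 set of embryos share animals, and p-values measure only the spread between these sums. The tdT+ and tdT- sums of a set come from the same embryos, so numbers pair them by design (deviations correlated at r = 0.0642 to 0.349), and a fit with the set as a block was run. The procedure was tested on simulated data. The 10 genes were named throughout, with other pathway genes past an adjusted p of 0.05 or else the 2 of lowest p, and the 3 genes most like each in level (for *Dkk2* the first only, the others not being reported here). The members and lists were chosen with earlier results of these data known.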

Additional observations from a re-analysis of the deposited data

Results flagged for a closer look

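In groups of 4 values, 9 of 280 (3.21%) had a highest or lowest value far from the other values, where chance gives about 1 in 20. *Frzb* over all cells was lowest in the p21 sum of the Collection 1 tdT+ library, at 26.6 CPM (UMIs per 1000000), with the nearest p21 sum at 35.4. *Wnt5b* in tdT- chondrocytes was highest in the control sum of Collection 2, at 65.18. *Dkk2* in tdT- resting-like cells was highest in the same control embryos, at 22.39, which rests on 10 UMIs in 22 cells. *Sfrp1* in tdT+ cells of cluster 4 was highest in the Collection 1 control sum, at 50.88. By library, *Frzb* in cluster 10 was highest in the Collection 1 tdT+ library at 24.36, and *Wnt5a* in resting-like cells in the Collection 2 tdT+ library at 35.62. The Collection 2 tdT- library was highest for *Sfrp2* in cluster 6 at 422.3, with the next library at 120.9, and for *Sfrp5* in cluster 6 at 4.557, on 3 UMIs. In cluster 8 it was lowest for *Sfrp5*, at 0 UMIs in 55 cells.

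Outside the comparisons, 3729 cells that passed the filters had no called sex, and all 10 genes had more than 3 UMIs in them. In these cells *Wnt5a* was at 46.4 and 71.8 CPM in the tdT+ and 48.4 and 29.2 in the tdT- libraries, and *Sfrp2* at 156 and 149 against 212 and 222.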

How the results depend on the processing

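Of 178 alternative fits of the 11 comparisons, 161 left the number of the 10 genes past the threshold alike, 10 lowered it and 7 raised it. Without a filter on low counts it was 2 (p21, all cells), 1 (p21, chondrocytes), 1 (p21, other mesenchyme), 4 (fractions, all cells) and 4 (fractions, other mesenchyme), and DESeq2 gave 1 for p21 in chondrocytes. Leaving out 1 sum gave 1 to 4 genes between fractions over all cells and 0 to 2 in the other mesenchyme, the 0 without the p21 sum of the Collection 2 tdT- library. In the other mesenchyme, alternatives added after seeing the data gave 1 gene without the tenocyte-like cluster, 0 in cluster 1 and 0 in cluster 4, and within cluster 1 the signs of *Dkk2* (-0.117) and *Dkk3* (0.215) were reversed. The cause of these changes was not tested, and the added fits held fewer cells. With the set of embryos as a block, the paired counts of the 10 genes between fractions were 2 over all cells, 0 in chondrocytes and 2 in the other mesenchyme, and with library as a block 0 for p21. Over all genes the block moved calls from 4 to 27 between fractions in chondrocytes, from 273 to 361 over all cells and from 41 to 27 for p21 in chondrocytes. Calls over all genes ran, across alternatives, from 0 to 420 for p21 over all cells, 5 to 369 in chondrocytes, 0 to 85 in resting-like cells, 0 to 54 in interzone-like cells, 0 to 56 in cluster 4 and 0 to 187 in the other mesenchyme. Between fractions they ran from 37 to 1649 over all cells, 1 to 251 in chondrocytes and 91 to 935 in the other mesenchyme, and for the interaction from 0 to 192 and 0 to 28. *Sfrp2* over all cells lost its call without condition in the model (adjusted p = 0.0677 by edgeR). With clusters joined by their best-matching marker list, in place of the groups used above, restricting cells to at least 3000 UMIs kept the type of highest level for 6 of the 10 genes and changed it for *Sfrp1*, *Frzb*, *Dkk2* and *Dkk3*.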
